A study of Mus musculus with 12 samples.

Results

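The S phase and DNA replication genes described here are 37 mouse genes, taken by their symbols from the gene tables of the series, which list 24411 genes. All 37 were listed, and all 37 passed the filter on low counts that left 13755 genes to test. They fall into 9 roles: origin licensing (5 genes), the MCM2-7 helicase (6), helicase activation (4), polymerases and primase (5), the sliding clamp and its loader (5), Okazaki fragment joining (2), nucleotide synthesis (4), G1/S control (3), and chromatin assembly and maintenance (3).

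RNA had been sequenced from bone marrow cells of femora and tibiae that lacked lineage markers and carried the receptor Kit, the compartment of hematopoietic stem cells and progenitors. Donor marrow (CD45.2+, C57BL/6) carried Mx1-Cre with both the inv(3) allele and heterozygous Sf3b1 K700E (double group), Mx1-Cre with inv(3), Mx1-Cre with heterozygous Sf3b1 K700E, or Mx1-Cre alone (control), with 3 libraries in each of the 4 groups. It was mixed with wild-type CD45.1+ support marrow and transplanted into lethally irradiated CD45.1+ mice. Every group, control included, received pIpC, which induces the interferon-responsive Mx1 promoter of the Cre transgene, in 3 doses of 20 mg/kg given 4 weeks after transplantation, and cells were taken 6 months later. Whether donor cells were separated from support and recipient cells, and how old the mice were, is stated in none of the labels. The inv(3) rearrangement places EVI1 under a GATA2 enhancer, and K700E is a hotspot mutation of the splicing factor Sf3b1. The labels do not say that the libraries of a group came from separate mice, so p-values measure the spread between these libraries, which may be technical.

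Replication is prepared in G1, when the origin recognition complex, Cdc6 and Cdt1 load the MCM2-7 ring onto DNA, a step called licensing that geminin blocks once synthesis has begun. Cyclin E, the partner of Cdk2, and the E2F transcription factors drive entry into S phase, where Cdc45 and the GINS complex turn the loaded ring into an active helicase. Polymerase alpha with its primase starts each strand, the Pcna clamp tethers the polymerases that extend it, and Fen1 and Lig1 seal the lagging strand. In marrow, most stem cells are quiescent, while the progenitors they give rise to divide often, and E2F target genes are transcribed together as cells approach S phase.

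Library totals ran from 73074788 to 86555636 counts, and the 37 genes held between 0.616% and 0.736% of them. Levels are given as CPM, counts scaled to a common library size with TMM factors, for one gene across libraries, or as the deposited TPM, which also allows for transcript length, where genes are compared with each other. Kit, the receptor of the gate, stood between 420.4 and 468 CPM in the 12 libraries, whereas the T cell marker Cd3e stayed at or below 0.129 CPM. Y-linked transcripts summed to 0.0493 to 0.110 CPM in inv(3) libraries and to 232 to 307 CPM in the other 9 libraries, so inv(3) libraries differ from all others in this respect as well, and each comparison with the inv(3) group carries that difference. The comparisons of double with control, double with Sf3b1 K700E and Sf3b1 K700E with control do not carry that absence. Y-linked sums were still higher in double (283 to 307 CPM) than in Sf3b1 K700E (232 to 282 CPM) and control (251 to 267 CPM). Ddx3y and Uty were called higher in double than in control (edgeR, adjusted p = 0.021 and 0.024). Kdm5d and Uty were called higher in double than in Sf3b1 K700E (adjusted p = 0.015 and 0.012), and Eif2s3y in neither comparison.

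With both alleles together, replication transcripts were lower than in control across most roles, by modest amounts. In double libraries 23 of the 37 genes fell against control (adjusted p under 0.05, edgeR), led by the cyclin E gene Ccne1 and the licensing ATPase gene Orc1; of all genes tested, 20.4% were called lower and 20.8% higher in that comparison, beside 62.2% of the 37 lower. The median log2 fold change of the 37 was -0.16, with a range of -0.61 to 0.06, against a median of 0.00 for all genes. Double libraries also had 22 of the 37 lower than Sf3b1 K700E libraries, where 23.5% of all genes were called lower and 25.7% higher, and the median of the 37 was -0.16. Fewer cells in S phase and less of these transcripts per cell cannot be told apart in bulk RNA.

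The inv(3) allele alone went with a smaller shift. In inv(3) libraries 11 of the 37 genes, or 29.7%, fell against control, where 20.3% of all genes were called lower and 18.4% higher. Their median was -0.08 and their range -0.39 to 0.21. The count was 7 without control replicate 1, 2 or 3 or without inv(3) replicate 2, and 18 with upper-quartile scaling. In Sf3b1 K700E libraries 2 of the 37 fell against control, Lig1 and Tk1, with a median of 0.01 and a range of -0.24 to 0.18. That is 5.41% of the 37, and 4.90% of all genes were called lower and 3.94% higher. Both of these calls were lost without control replicate 2, control replicate 3 or Sf3b1 K700E replicate 2. Upper-quartile scaling moved the split of calls over all genes: 62.4% of those between Sf3b1 K700E and control were then higher, against 44.6% with TMM, and 40.3% of those between double and Sf3b1 K700E, against 52.3%. Between inv(3) and control 37.5% were then higher, against 47.5% with TMM. There 3415 of all genes were called lower, against 2793 with TMM, so the count of 18 is not to be set beside 20.3%.

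Set against inv(3) libraries, double libraries had 7 of the 37 lower: Ccne1, Ccne2, Gmnn, Pcna, Rrm2, Tk1 and Tyms. Of all genes, 9.13% were called lower and 13.4% higher there, beside 18.9% of the 37 lower, and the median of the 37 was -0.09. The count was 4 without double replicate 1 or 3 or with the compared libraries alone, and 12 without double replicate 2. None of the 37 was called higher in any of these 5 comparisons with edgeR; at an unadjusted p under 0.05 the number higher was 2 in Sf3b1 K700E against control and 0 in the other 4, and DESeq2 called 1 higher, Cdc6, in that same comparison and 0 in the others.

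Whether the effect of inv(3) differed with Sf3b1 status was tested directly as an interaction, double minus inv(3) minus Sf3b1 K700E plus control. It includes the inv(3) libraries and so carries their lack of Y-linked transcripts (Ddx3y 13.0, adjusted p = 3.5e-12, edgeR). That lack cannot be told apart here from an effect of the alleles. None of the 37 passed in either direction with edgeR, where 0.436% of all genes were called lower and 0.400% higher, and the smallest adjusted p was 0.11. At an unadjusted p under 0.05, 12 of the 37 were lower and 0 higher, which is 32.4% of the 37 beside 16.4% of all genes in either direction, and DESeq2 called 3 lower and 0 higher. The median interaction of the 37 was -0.10, and 29 of them lay below 0. Ccne2 came nearest, with -0.36 ± 0.10 (log2 scale, SE; adjusted p = 0.11), followed by Gmnn with -0.24 ± 0.07 (adjusted p = 0.14). Without double replicate 2 the interaction passed for 2 of the 37. Of all genes called, 35.7% were higher with upper-quartile scaling and 47.8% with TMM.

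**Figure D1:**
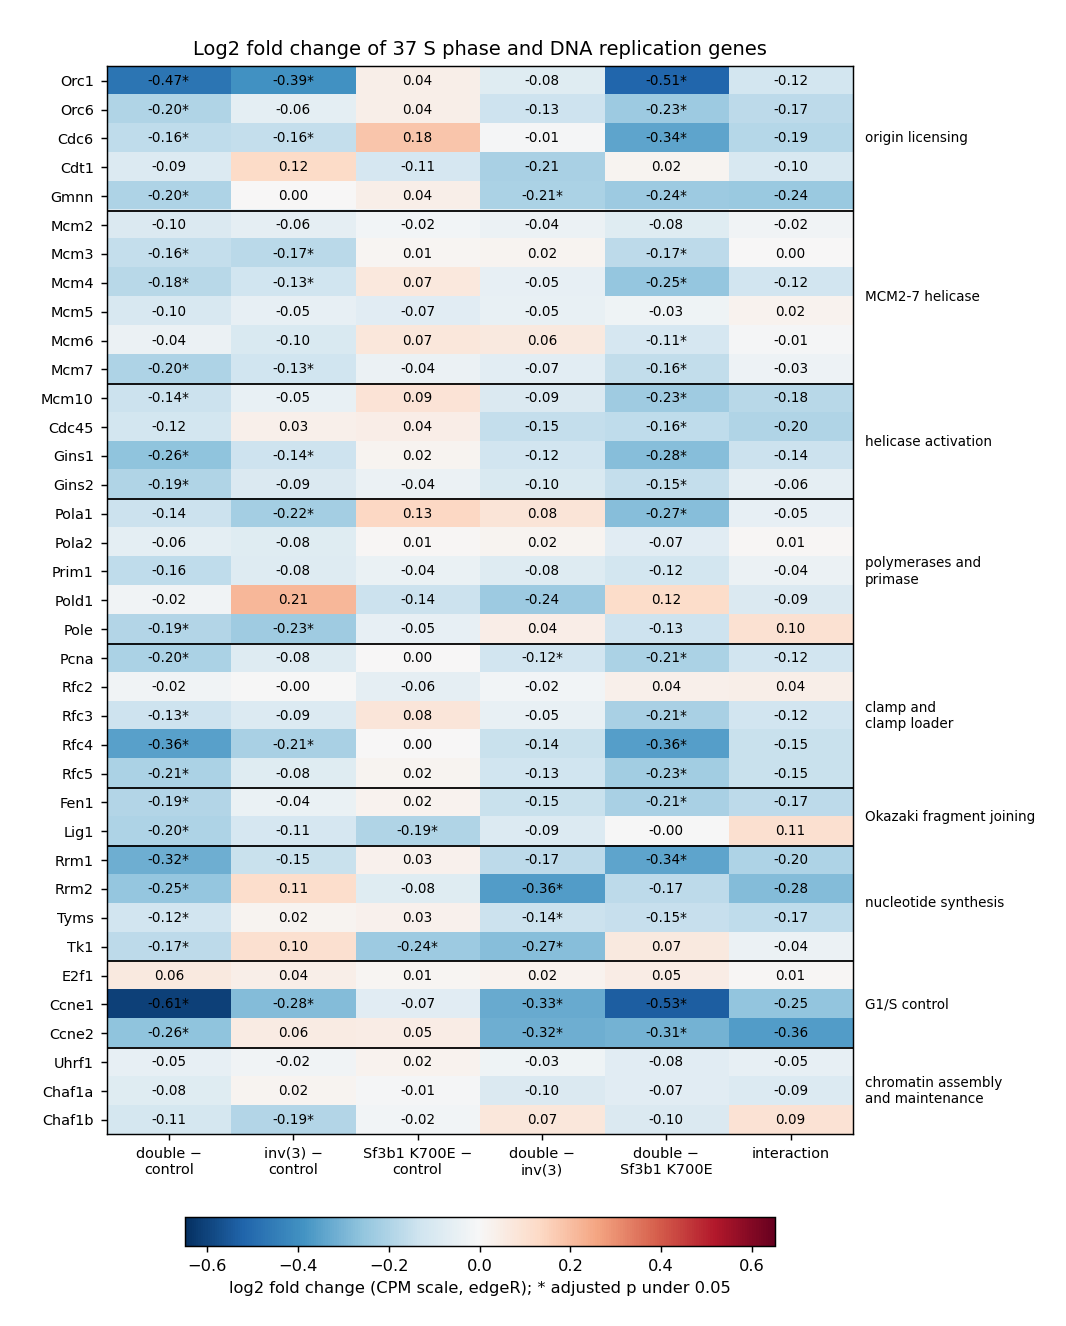
Log2 fold change of each of the 37 genes (rows, by role) in 5 comparisons of 2 groups and in the interaction (columns); an asterisk marks an adjusted p under 0.05 (edgeR, 3 libraries a group). The columns of double against control and double against Sf3b1 K700E hold 23 and 22 asterisks, all on values below 0, and the column of Sf3b1 K700E against control holds 2.

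Summed over the 37 genes, CPM stood at 6206, 6569 and 6245 in double libraries, at 6757, 6636 and 6634 in inv(3) libraries, at 7021, 6947 and 7038 in Sf3b1 K700E libraries, and at 6990.5, 7057 and 7017 in control libraries. The means were 6340.1 ± 199 in double, 6676 ± 70.4 in inv(3), 7002 ± 48.4 in Sf3b1 K700E and 7022 ± 33.3 in control (SD, n = 3 each). Relative to the control mean this is 90.3% in double, 95.1% in inv(3) and 99.7% in Sf3b1 K700E. All 3 double libraries lay below all 3 inv(3) libraries, and these lay below all 6 libraries of the other 2 groups. The ordering of double below inv(3) depends on scaling by TMM: as a share of all counts the 37 genes were at 88.3% of control in double and 90.3% in inv(3), with ranges of 0.616% to 0.642% of counts in double and 0.630% to 0.650% in inv(3), which overlap. The level in Sf3b1 K700E also depends on it: as a share of all counts it was 104% of control, with 0.732% to 0.736% of counts in Sf3b1 K700E and 0.701% to 0.713% in control, which do not overlap.

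**Figure D2:**
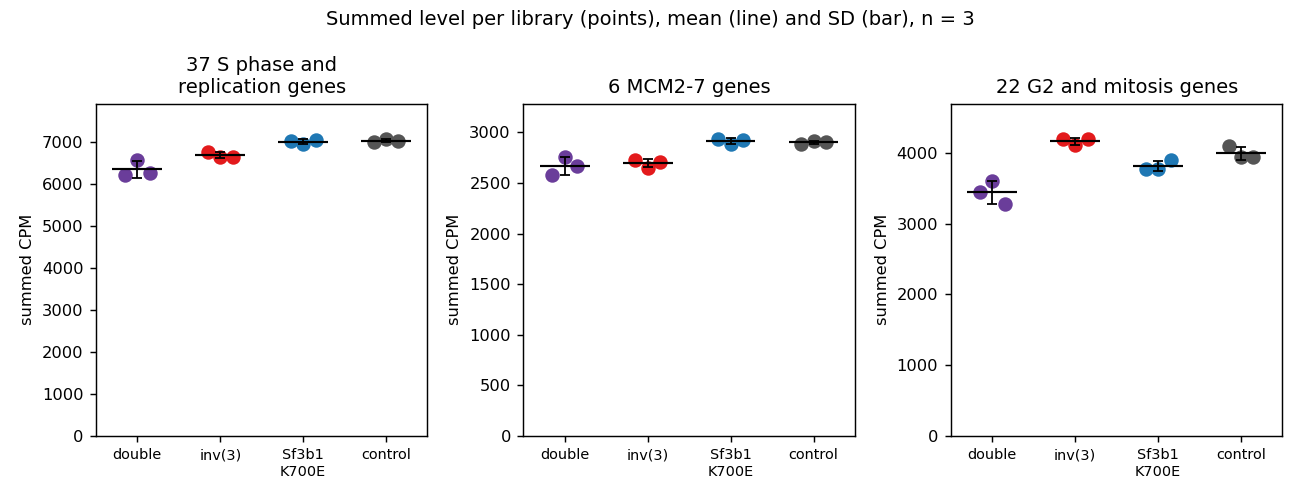
Summed CPM per library (points) with group mean (line) and SD (bar) for the 37 genes, for the 6 MCM2-7 genes and for 22 G2 and mitosis genes, 3 libraries a group, axes starting at 0. Double libraries are lowest in the panels of the 37 genes and of the G2 and mitosis genes, while inv(3) libraries lie at 92.9% of control for the MCM2-7 genes and at 104% for the G2 and mitosis genes.

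The summed level of each role was below control in double libraries. Nucleotide synthesis stood at 83.4% of control in double, 98.1% in inv(3) and 98.0% in Sf3b1 K700E, and the MCM2-7 ring at 92.0% in double, 92.9% in inv(3) and 100.4% in Sf3b1 K700E. Differences between roles were not tested, and the nucleotide sum holds Tk1, whose mean in Sf3b1 K700E was below that in double. Chromatin assembly and maintenance moved least, at 95.5% of control in double, and 0 of its 3 genes passed in double against control with edgeR or DESeq2, with 1, Chaf1b, lower at an unadjusted p under 0.05.

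Among the G1/S control genes the cyclin E genes fell and E2f1 did not move past the test. Ccne1, which encodes cyclin E1 (chromosome 7, 38097984 to 38107490, GRCm38.p6), stood at 15.4, 16.7 and 16.2 CPM in double libraries and 21.8, 19.2 and 19.8 CPM in inv(3) libraries, against 23.4, 24.3 and 22.4 CPM in Sf3b1 K700E and 25.3, 24.7 and 23.7 CPM in control libraries. Every double library was below every library of the other groups, and every inv(3) library below every control library. Ccne1 fell by 34.4% in double against control, a log2 fold change of -0.61 ± 0.06 (SE; adjusted p = 1.4e-05), and was -0.53 against Sf3b1 K700E (adjusted p = 3.2e-05) and -0.33 against inv(3) (adjusted p = 0.0044). In inv(3) against control the change was -0.28 ± 0.06 (adjusted p = 0.0038). These 4 calls passed in all 19 alternatives.

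Ccne2, the gene of cyclin E2, stood at 46.2, 48.5 and 45.5 CPM in double libraries and at 61.9, 56.9 and 55.7 CPM in inv(3) libraries. Sf3b1 K700E libraries had 51.6, 62.3 and 59.6 CPM and control libraries 59.7, 55.3 and 53.0 CPM, so double libraries were lowest and the other 3 groups overlapped. The log2 fold change of double was -0.32 against inv(3) (adjusted p = 0.0094), -0.31 against Sf3b1 K700E (adjusted p = 0.0037) and -0.26 against control (adjusted p = 0.012). E2f1, the activating E2F factor with the highest TPM of this role, was at 70.7, 72.7 and 69.9 CPM in double libraries and at 66.9, 69.2 and 68.4 CPM in control libraries. Its inv(3) libraries had 72.0, 70.4 and 67.7 CPM and its Sf3b1 K700E libraries 71.2, 67.6 and 67.4 CPM, and its log2 fold changes ran from 0.01 to 0.06 in the 5 comparisons with standard errors of 0.04.

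Of the 5 licensing genes, 4 fell in double against control (Orc1, Orc6, Cdc6 and Gmnn), the same number fell against Sf3b1 K700E, and 2 fell in inv(3) against control (Orc1 and Cdc6). Orc1, the ATPase subunit of the origin recognition complex that appears in G1 (chromosome 4, 108575705 to 108616030), had 17.4, 19.5 and 17.0 CPM in double libraries and 19.4, 19.5 and 18.1 CPM in inv(3) libraries. Sf3b1 K700E libraries had 25.1, 26.0 and 25.8 CPM and control libraries 25.5, 25.1 and 24.3 CPM. The 6 libraries with the inv(3) allele all lay below the 6 without it, and double and inv(3) overlapped. The log2 fold change was -0.47 ± 0.06 in double against control (adjusted p = 7.4e-05), -0.39 ± 0.06 in inv(3) against control (adjusted p = 0.00032) and -0.51 in double against Sf3b1 K700E (adjusted p = 3.2e-05). Between double and inv(3) it was -0.08 ± 0.06 (adjusted p = 0.37).

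Cdc6, the ATPase that joins the origin complex to load MCM rings, was at 89.7, 95.7 and 87.9 CPM in double libraries and at 98.8, 88.4 and 87.7 CPM in inv(3) libraries. It was at 111, 117 and 119 CPM in Sf3b1 K700E libraries and at 105, 101 and 100.2 CPM in control libraries, so all Sf3b1 K700E libraries were above all others. Double was lower than Sf3b1 K700E by -0.34 (adjusted p = 0.00024), and Sf3b1 K700E against control was 0.18 ± 0.05 (adjusted p = 0.056). With RLE or upper-quartile scaling, DESeq2, the compared libraries alone or without inv(3) replicate 1, this rise of Cdc6 in Sf3b1 K700E passed. The calls of Cdc6 against control were less firm: in double it was lost without control replicate 1 or 2 or double replicate 1 or 3, and in inv(3) without any of the 3 control libraries, inv(3) replicate 2 or 3, or Sf3b1 K700E replicate 2 or 3.

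Gmnn encodes geminin, the licensing inhibitor, which rises through S and G2 and has the highest TPM of this role. It stood at 49.95, 57.8 and 53.0 CPM in double libraries and at 60.2, 62.6 and 62.8 CPM in inv(3) libraries, against 62.1, 63.9 and 63.7 CPM in Sf3b1 K700E and 64.1, 61.6 and 59.3 CPM in control libraries. Double libraries were below all 9 others, which overlapped. Its log2 fold change was -0.21 in double against inv(3) (adjusted p = 0.016, lost without double replicate 1 or 3), -0.24 against Sf3b1 K700E and -0.20 against control. Cdt1, the licensing partner of Cdc6, passed in none of these comparisons, with -0.09 ± 0.14 in double against control.

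The MCM2-7 genes encode the 6 subunits of the ring, and they split. Mcm3, Mcm4 and Mcm7 were lower in double than in control, lower in double than in Sf3b1 K700E and lower in inv(3) than in control. Mcm2 and Mcm5 passed in none of the comparisons, and Mcm6 passed only in double against Sf3b1 K700E, at -0.11 ± 0.04 (adjusted p = 0.049). Mcm3 had 414, 440.1 and 430.5 CPM in double libraries and 439, 412 and 419 CPM in inv(3) libraries, against 486, 474 and 484 CPM in Sf3b1 K700E and 476, 478 and 477 CPM in control libraries. The 6 inv(3)-bearing libraries were again all below the other 6. Its log2 fold change was -0.17 ± 0.04 in inv(3) against control (adjusted p = 0.0031) and -0.16 in double against control (adjusted p = 0.0055).

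Mcm6 was the most abundant MCM gene per length, with a mean of 412 TPM, and Mcm4 the least, so that the highest and lowest subunit differed 2.65-fold in double, 2.44-fold in inv(3), 2.40-fold in Sf3b1 K700E and 2.40-fold in control. In CPM, Mcm6 stood at 619.7, 669 and 654 in double and 633, 592 and 633 in inv(3), against 678, 703 and 717 in Sf3b1 K700E and 681, 656 and 657 in control. Double and control libraries overlapped for Mcm6, with a log2 fold change of -0.04 ± 0.04. The call of Mcm6 between double and Sf3b1 K700E was lost without control replicate 2, inv(3) replicate 1 or 3, Sf3b1 K700E replicate 2 or 3, or double replicate 1 or 3. In inv(3) against control, Mcm7 lost its call without any control library or without inv(3) replicate 1 or 2, and Mcm4 without any control library, inv(3) replicate 2 or 3 or Sf3b1 K700E replicate 2 or 3.

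Of the genes that activate the ring, all 4 fell in double against Sf3b1 K700E, and Mcm10, Gins1 and Gins2 fell in double against control. Cdc45, the helicase cofactor with the highest TPM of this role, had 88.3, 94.2 and 85.8 CPM in double libraries and 108, 96.6 and 94.0 CPM in inv(3) libraries, against 101, 96.7 and 103 CPM in Sf3b1 K700E and 98.0, 98.6 and 94.9 CPM in control libraries. Double libraries were lowest, though their highest value was just above the lowest inv(3) value. The change was -0.16 ± 0.05 against Sf3b1 K700E (adjusted p = 0.027, lost without Sf3b1 K700E replicate 1 or 3 or double replicate 1 or 3) and -0.12 against control (adjusted p = 0.10). Gins1, a GINS subunit, changed more: -0.26 ± 0.05 in double against control (adjusted p = 0.0014), -0.28 against Sf3b1 K700E and -0.14 in inv(3) against control (adjusted p = 0.048). That last call was lost in 13 of the 19 alternatives, among them those without control replicate 1, 2 or 3, inv(3) replicate 1 or 2, Sf3b1 K700E replicate 2 or 3 or double replicate 1.

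Of the 5 polymerase and primase genes, Pola1 and Pole fell in inv(3) against control. Pola1, the catalytic subunit of polymerase alpha, which is X-linked, had 133, 139 and 141 CPM in double libraries and 138, 123 and 129.5 CPM in inv(3) libraries, against 155, 172 and 172 CPM in Sf3b1 K700E and 158, 147 and 151 CPM in control libraries. All inv(3)-bearing libraries were below all others, and the change was -0.22 ± 0.06 in inv(3) against control (adjusted p = 0.0078) and -0.27 ± 0.06 in double against Sf3b1 K700E (adjusted p = 0.0016). In double against control Pola1 did not pass with edgeR, and was lower only at an unadjusted p under 0.05. Sf3b1 K700E against control gave 0.13 ± 0.06 (adjusted p = 0.15). Pole, the catalytic subunit of the leading-strand polymerase epsilon, stood at 144, 150.2 and 151 CPM in double and 146, 131 and 155 CPM in inv(3), against 159, 161 and 168 CPM in Sf3b1 K700E and 174, 167 and 165 CPM in control. It was lower in inv(3) than in control by -0.23 ± 0.06 (adjusted p = 0.0069) and in double than in control by -0.19 (adjusted p = 0.019, lost without control replicate 1 or double replicate 1). Prim1, the small primase subunit and the gene of this role with the highest TPM, had 75.8, 79.3 and 76.8 CPM in double libraries and 93.1, 84.5 and 82.3 CPM in control libraries. Its inv(3) libraries had 81.0, 78.9 and 85.6 CPM and its Sf3b1 K700E libraries 75.9, 88.7 and 87.4 CPM, and no comparison passed (double against control -0.16 ± 0.06, adjusted p = 0.059).

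In the clamp and loader group, Pcna, Rfc3, Rfc4 and Rfc5 fell in double against control and against Sf3b1 K700E, and Rfc2 did not pass in any comparison. Pcna, the sliding clamp (chromosome 2, 132249286 to 132253180), was the most abundant of the 37 genes per length, at a mean of 661 TPM. It stood at 376, 395 and 383 CPM in double libraries and 426, 416 and 414 CPM in inv(3) libraries, against 437, 446 and 448 CPM in Sf3b1 K700E and 443, 448 and 438 CPM in control libraries. Double libraries lay below inv(3) libraries, and these below the overlapping other 2 groups. The change was small but well above the spread between libraries: -0.20 ± 0.03 against control (adjusted p = 0.0005), -0.21 against Sf3b1 K700E (adjusted p = 0.00037) and -0.12 against inv(3) (adjusted p = 0.023, lost without inv(3) replicate 1 or double replicate 1 or 3). In inv(3) against control it was -0.08 (adjusted p = 0.076).

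Rfc4, a subunit of the loader that opens the clamp (chromosome 16, 23113948 to 23127730), had 42.8, 47.6 and 46.1 CPM in double and 49.6, 48.1 and 53.1 CPM in inv(3), against 55.5, 59.5 and 59.9 CPM in Sf3b1 K700E and 60.8, 56.9 and 56.9 CPM in control. No library with inv(3) reached any library without it. Rfc4 changed by -0.36 ± 0.06 in double against control (adjusted p = 0.00034), by -0.36 against Sf3b1 K700E (adjusted p = 0.00025) and by -0.21 in inv(3) against control (adjusted p = 0.01). Double against inv(3) gave -0.14 (adjusted p = 0.083).

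**Figure D3:**
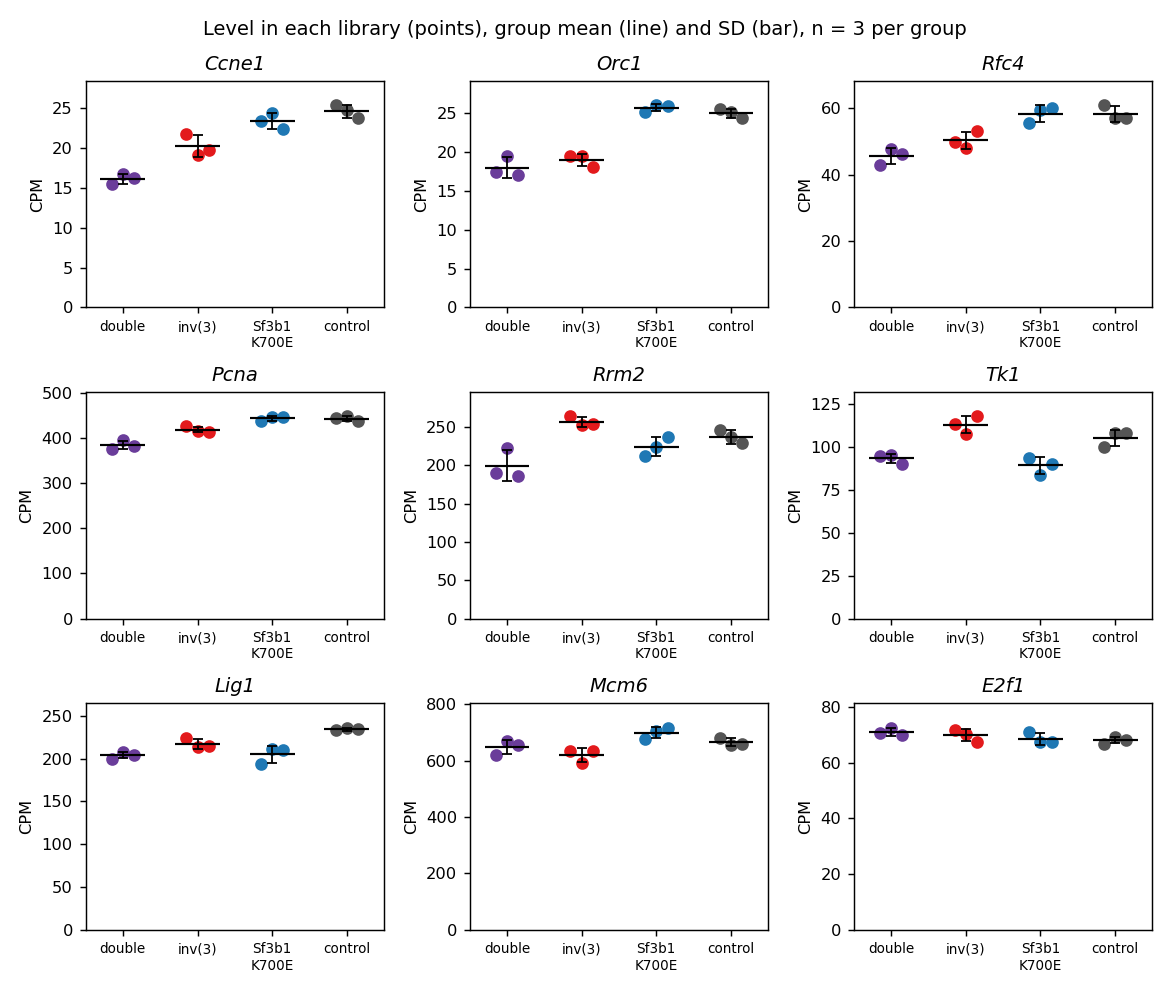
CPM of 9 of the genes in each library (points), with the group mean (line) and SD (bar), n = 3 per group, each axis starting at 0. Ccne1 descends in the double and inv(3) groups, Orc1 is low in both groups that carry inv(3), Rrm2 is lowest in double and highest in inv(3), Tk1 is low in the double and Sf3b1 K700E groups, and E2f1 is level.

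By summed CPM, nucleotide synthesis was the role of the 9 in which double libraries stood most apart from inv(3) libraries. All 4 genes (Rrm1, Rrm2, Tyms and Tk1) fell in double against control, 3 of them in double against inv(3), and 0 in inv(3) against control, with edgeR or DESeq2, where 1, Rrm1, was lower at an unadjusted p under 0.05. Rrm2, the regulatory subunit of ribonucleotide reductase and a marker of S phase (chromosome 12, 24708254 to 24714146), had 189.7, 223 and 186 CPM in double libraries and 264, 253 and 254 CPM in inv(3) libraries, against 213, 224 and 237 CPM in Sf3b1 K700E and 246, 237 and 229 CPM in control libraries. Inv(3) libraries were highest, and double overlapped with Sf3b1 K700E. The change in double was -0.36 ± 0.07 against inv(3) (adjusted p = 0.004) and -0.25 ± 0.07 against control (adjusted p = 0.011, and 0.051 without double replicate 3), while inv(3) against control gave 0.11 ± 0.07 (adjusted p = 0.20). Rrm1, the catalytic subunit with the highest TPM of this role, had 366, 404 and 369 CPM in double and 435, 422 and 426 CPM in inv(3), against 445, 502 and 499 CPM in Sf3b1 K700E and 501, 463 and 454 CPM in control. Double was lowest throughout, with -0.32 ± 0.06 against control (adjusted p = 0.001) and -0.34 against Sf3b1 K700E (adjusted p = 0.00044).

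Tk1, the thymidine kinase of S phase cells (chromosome 11, 117815519 to 117826087), followed another pattern. It stood at 94.7, 94.8 and 90.1 CPM in double libraries and 113, 107 and 118 CPM in inv(3) libraries, against 93.6, 83.8 and 89.8 CPM in Sf3b1 K700E and 99.5, 108 and 108 CPM in control libraries. Both groups with Sf3b1 K700E were below both groups without it in every library. Tk1 was -0.24 ± 0.05 in Sf3b1 K700E against control (adjusted p = 0.02) and -0.27 ± 0.05 in double against inv(3) (adjusted p = 0.0047), a pair of comparisons that share no library. It changed by -0.17 in double against control (adjusted p = 0.021, lost without control replicate 2 or 3 or double replicate 3). Tyms, thymidylate synthase, had 81.4, 84.6 and 81.6 CPM in double libraries and 91.9, 87.6 and 93.5 CPM in inv(3) libraries, against 88.3, 94.2 and 92.1 CPM in Sf3b1 K700E and 92.6, 89.2 and 87.9 CPM in control libraries. Double libraries were below all 9 others, and the changes were -0.15 against Sf3b1 K700E (adjusted p = 0.0091), -0.14 against inv(3) (adjusted p = 0.028, lost without inv(3) replicate 1 or 3 or double replicate 1 or 3) and -0.12 against control (adjusted p = 0.028, lost without control replicate 1 or 2 or double replicate 1 or 3).

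Lig1, the DNA ligase that seals Okazaki fragments (chromosome 7, 13277175 to 13311426), shared the low level in Sf3b1 K700E. It had 199.97, 208 and 205 CPM in double libraries and 224, 213 and 215 CPM in inv(3) libraries, against 193, 211 and 209.7 CPM in Sf3b1 K700E and 233, 236 and 234 CPM in control libraries. Control libraries were above all 9 others. Lig1 changed by -0.20 ± 0.04 in double against control (adjusted p = 0.0026) and by -0.19 ± 0.04 in Sf3b1 K700E against control (adjusted p = 0.018), while double against Sf3b1 K700E gave -0.00 ± 0.04. Fen1, the flap endonuclease that trims the fragments, fell in double against Sf3b1 K700E (-0.21 ± 0.06, adjusted p = 0.012) and against control (-0.19, adjusted p = 0.024, lost without control replicate 2 or 3 or double replicate 3).

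Among the genes that keep chromatin through replication, only Chaf1b, a subunit of the histone chaperone CAF-1, passed, in inv(3) against control (-0.19 ± 0.05, adjusted p = 0.0071) and in no other comparison. Uhrf1, which recruits maintenance DNA methylation to new strands and has the highest TPM of this role, stood at 343, 359 and 315 CPM in double libraries and 348, 364 and 326 CPM in inv(3) libraries. Sf3b1 K700E libraries had 386, 339 and 347 CPM and control libraries 333, 358 and 363 CPM, and all 4 groups overlapped.

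The other calls in double against control that depended on a library were those of Mcm10, lost without any of the 3 control libraries or double replicate 1 or 3, and of Rfc3, lost without control replicate 1 or 2 or double replicate 1 or 3. For 15 of the 23 calls in that comparison, 19 of the 22 in double against Sf3b1 K700E, 7 of the 11 in inv(3) against control and 4 of the 7 in double against inv(3), the adjusted p stayed under 0.05 in all 19 alternatives. In double against Sf3b1 K700E the calls lost were those of Cdc45, Mcm6 and Gins2, the last without Sf3b1 K700E replicate 1 or double replicate 1 or 3. Every called gene kept its direction.

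**Figure D4:**
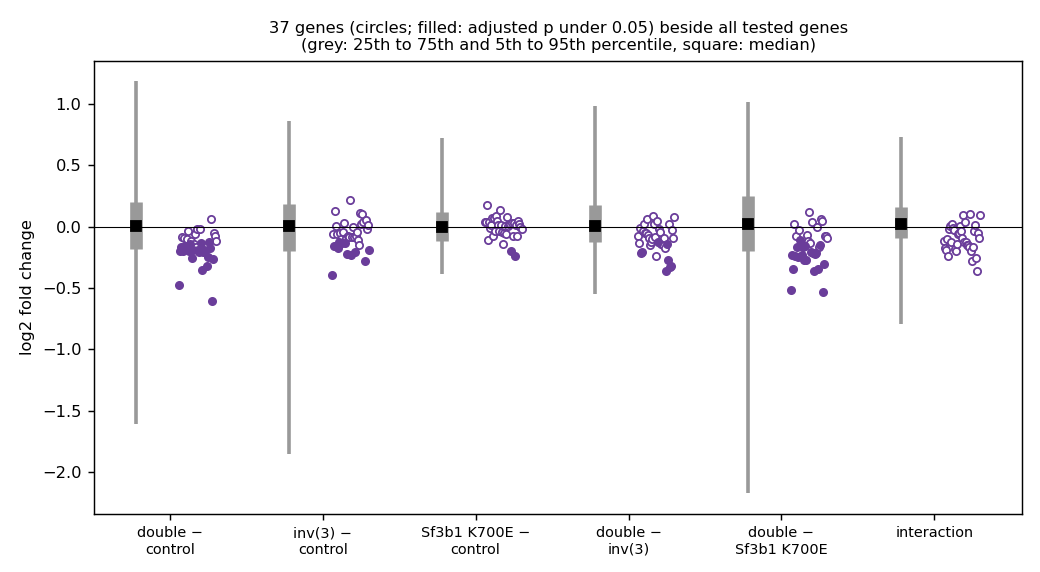
Log2 fold change of the 37 genes (circles, filled where the adjusted p is under 0.05) in 5 comparisons and the interaction, beside the median (square), 25th to 75th (thick bar) and 5th to 95th percentile (thin bar) of all 13755 tested genes. The circles lie mostly below 0 in double against control and double against Sf3b1 K700E, but within the 5th to 95th percentile of all genes.

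The pair of comparisons that ask for the effect of inv(3), without Sf3b1 K700E (inv(3) against control) and with it (double against Sf3b1 K700E), share no library. They had 9 called genes in common, all lower in both: Ccne1, Cdc6, Gins1, Mcm3, Mcm4, Mcm7, Orc1, Pola1 and Rfc4, which is 81.8% of the 11 called in the first and 40.9% of the 22 called in the second. Over all tested genes, those lower in both were 76.5% of the genes lower in the first and 66.2% of those lower in the second. Of the 37 genes, 30 (81.1%) had the same sign in both, beside 81.3% of all genes, and 26 were below 0 in both. The pair that asks for the effect of Sf3b1 K700E, without inv(3) (Sf3b1 K700E against control) and with it (double against inv(3)), shared 1 called gene, Tk1, and 18 genes of the same sign (48.6%, beside 68.5% of all genes).

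E2F factors bind words such as TTTCGCGC, TTTGGCGC and TTTCCCGC, and these were searched on both strands in the 250 bases before each start site, in promoters of RefSeq (GRCm38.p6). A promoter was found for 30 of the 37 genes, and 8 of these (26.7%) held such a word: Cdc6, Mcm5, Mcm6, Mcm7, Orc1, Pola1, Rfc3 and Uhrf1. Among 10374 other tested genes with a promoter 343 (3.31%) held one, and 1.78% of all genes with a listed promoter did. No promoter was matched for Ccne2, Gins1, Gins2, Gmnn, Mcm4, Pole and Rfc2. The cell cycle homology word TTTGAA of genes expressed in G2, searched in the same way, was in 3 of the 30 and in 12.9% of the other tested genes. Of the 9 genes lower in both inv(3) comparisons, Gins1 and Mcm4 had no promoter to search. An E2F word was held by 4 of the others, and their sequence is shown for that reason, on the gene's strand with the word (as its reverse complement) in capitals.
Orc1: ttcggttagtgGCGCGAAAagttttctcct
Cdc6: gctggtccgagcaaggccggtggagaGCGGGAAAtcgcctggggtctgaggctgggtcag
Pola1: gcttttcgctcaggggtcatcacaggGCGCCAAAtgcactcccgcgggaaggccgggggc
Mcm7: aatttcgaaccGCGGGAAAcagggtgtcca
They lie at chr4:108579416-108579445 (plus strand), chr11:98907987-98908046 (plus strand), chrX:93632260-93632319 (minus strand) and chr5:138172030-138172059 (minus strand), in the order Orc1, Cdc6, Pola1, Mcm7. The word began 27 bases before the start site in Orc1, 138 in Cdc6, 138 in Pola1 and 165 in Mcm7. All 4 windows lie inside the RefSeq span of their gene, so these start sites are downstream of its outer end. That end is at 108575705 in Orc1, 98907709 in Cdc6, 93632387 in Pola1 and 138172111 in Mcm7. A match is a description of the sequence, and Mcm5 and Uhrf1, which also hold a word, passed in none of the comparisons.

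**Figure D5:**
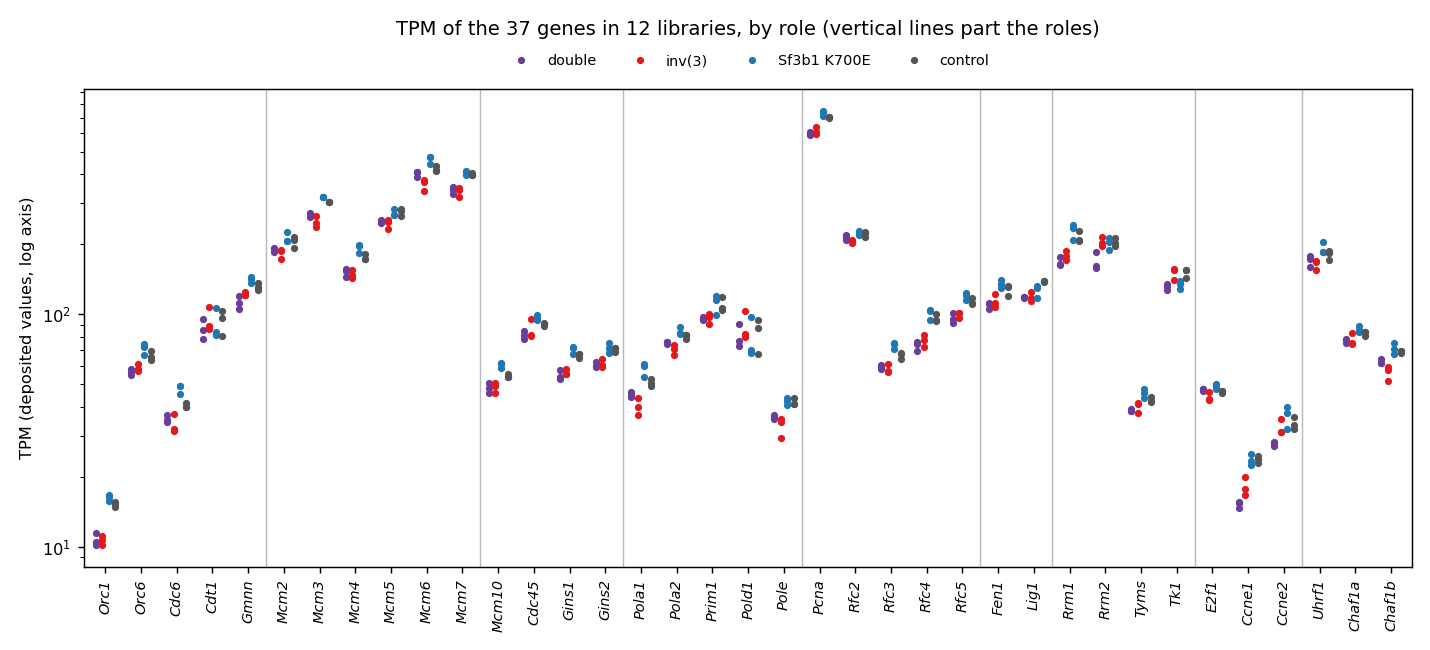
TPM of the 37 genes in the 12 libraries (points, coloured by group; log axis), ordered by role. Pcna is the highest gene and Orc1 the lowest, and within most genes the 12 points lie close together, with Cdt1 and Pold1 the widest.

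Per length, the 37 genes ranged from a mean of 661 TPM for Pcna to 13.2 TPM for Orc1, with Ccne1 next lowest at 20.2 TPM, and this pair had the largest changes in double against control; in double against inv(3) the largest was that of Rrm2, and in Sf3b1 K700E against control that of Tk1. Libraries of a group agreed closely: the median coefficient of variation within groups was 4.25% in CPM, and 28 of the 37 genes were under 5%. Cdt1 (13.6%) and Pold1 (17.1%) were the only genes above 10%, and in each of the 4 groups both peaked in the same library. Pold1, the catalytic subunit of polymerase delta, had 172, 149 and 139.7 CPM in double libraries, 163, 217 and 163 CPM in inv(3) libraries, 177, 120.3 and 126 CPM in Sf3b1 K700E libraries and 127, 164 and 177 CPM in control libraries. With that spread its standard errors were 0.17, and differences of the size seen for Pcna would not have been detectable for it. The effective length that the tables assign to each gene varied at most 1.03-fold between libraries among the 37.

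Of 34 other fork and licensing genes, 13 (38.2%) fell in double against control, beside 20.4% of all genes. In double against Sf3b1 K700E 16 (47.1%) fell, beside 23.5% of all genes (9 without double replicate 3). The medians were -0.13 in both. Rpa2, a subunit of the single-strand binding protein RPA, was -0.17 ± 0.03 in double against control (adjusted p = 0.0015) and -0.23 in double against Sf3b1 K700E (adjusted p = 0.00014). In inv(3) against control 5 of the 34 (14.7%) fell, fewer than the 20.3% of all genes, and the count ran from 2 to 11 across the alternatives. Among these 5, Orc2, another origin complex subunit, was -0.23 ± 0.05 (adjusted p = 0.003), and the histone chaperone gene Supt16 -0.19 (adjusted p = 0.0086). Ticrr, which helps to fire origins, was -0.21 in double against control (adjusted p = 0.0035), and Top1, which relieves the twist ahead of forks, gave -0.00 ± 0.06.

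Of 23 other nucleotide supply genes, 11 (47.8%) fell and 1 (4.35%) rose in double against control, with a median of -0.14, beside 20.4% of all genes lower and 20.8% higher. In inv(3) against control 10 (43.5%) fell, beside 20.3% of all genes, and 1 rose (2 without inv(3) replicate 1), with a median of -0.17. Mthfd1, a folate enzyme, was -0.47 ± 0.05 in double against control (adjusted p = 9.9e-06) and -0.40 in inv(3) against control (adjusted p = 4.9e-05). Of the purine synthesis genes, Gart was -0.20 in double and -0.29 in inv(3) against control, and Ppat was -0.24 in double and -0.32 in inv(3) against control. Paics, of the same route, was -0.22 in inv(3) against control (adjusted p = 0.0057) and -0.06 in double against control (adjusted p = 0.39). Ppat rose in Sf3b1 K700E against control (0.19 ± 0.04, adjusted p = 0.015), a call lost without control replicate 2 or Sf3b1 K700E replicate 2. Tk2, the mitochondrial thymidine kinase, was -0.29 ± 0.08 in double against inv(3) (adjusted p = 0.028, lost without inv(3) replicate 2 or double replicate 1).

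The nucleotide supply gene that rose was Samhd1, which degrades deoxynucleotides and is named here after its values were seen. It had 177, 169 and 189 CPM in double and 142, 138 and 136 CPM in inv(3), against 114, 120.3 and 115 CPM in Sf3b1 K700E and 119, 111 and 115 CPM in control. Double libraries were highest and inv(3) libraries next, with 0.63 ± 0.05 in double against control (adjusted p = 1.8e-06) and 0.27 ± 0.05 in inv(3) against control (adjusted p = 0.001).

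Of 15 other S phase chromatin genes, 6 fell in double against control, where 20.4% of all genes did (2 without control replicate 1, and 3 without control replicate 3 or double replicate 3). In inv(3) against control 3 (20%) fell, near the 20.3% of all genes, with 1 to 8 across the alternatives. There 1 (6.67%) rose, beside 18.4% of all genes. Cdca7, a cofactor of the remodeler Hells, was -0.17 ± 0.03 in inv(3) against control (adjusted p = 0.0022) and -0.23 in double against Sf3b1 K700E (adjusted p = 0.00018), and Hells itself was -0.32 ± 0.07 in double against Sf3b1 K700E (adjusted p = 0.0027). The histone chaperone gene Asf1a was -0.22 ± 0.07 in double against Sf3b1 K700E (adjusted p = 0.017, lost without Sf3b1 K700E replicate 2). Its paralog Asf1b had 56.4, 65.9 and 59.4 CPM in double and 80.9, 81.1 and 78.4 CPM in inv(3), against 69.4, 70.2 and 72.8 CPM in Sf3b1 K700E and 67.9, 71.6 and 68.1 CPM in control. Asf1b was thus lowest in double and highest in inv(3) libraries, at 0.21 ± 0.05 in inv(3) against control (adjusted p = 0.0079) and -0.40 ± 0.05 in double against inv(3) (adjusted p = 0.00089). Rbbp7, a histone-binding subunit, was 0.04 ± 0.04 in double against control.

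Of 26 replication checkpoint and fork repair genes, 10 (38.5%) fell in double against control, beside 20.4% of all genes (5 without control replicate 1 or double replicate 1, and 6 without double replicate 3). In inv(3) against control 8 (30.8%) fell, beside 20.3% of all genes, with 1 to 11 across the alternatives. The helicase gene Blm was -0.42 ± 0.06 in double against control (adjusted p = 0.00023) and -0.23 in inv(3) against control (adjusted p = 0.01), and the nuclease gene Exo1 was -0.20 in double against control (adjusted p = 0.0023). The checkpoint kinase gene Chek1 was -0.39 ± 0.05 in double against Sf3b1 K700E (adjusted p = 7.7e-05) and 0.32 ± 0.05 in Sf3b1 K700E against control (adjusted p = 0.0064). Both values rest on the same Sf3b1 K700E libraries, and Chek1 was -0.06 ± 0.05 in double against control (adjusted p = 0.35). The kinase gene Atr was 0.21 ± 0.05 in double against inv(3) (adjusted p = 0.016, lost without inv(3) replicate 2 or double replicate 3).

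Of 33 other regulators of the G1/S step, 31 were tested, and 7 (22.6%) rose and 8 (25.8%) fell in double against control, near the 20.8% and 20.4% of all genes. In inv(3) against control 7 rose (22.6%, beside 18.4% of all genes) and 3 fell (9.68%, fewer than the 20.3% of all genes). Those that fell were Ccnd2, E2f4 and E2f5, named after their values were seen. The number that fell was 1 without control replicate 2 or 3 or inv(3) replicate 2, and 5 without inv(3) replicate 3. Inhibitors of cyclin-dependent kinases differed among themselves. Cdkn1a (p21) and Cdkn1b (p27), also chosen after their values were seen, were -0.02 ± 0.16 and 0.02 ± 0.09 in double against control. Cdkn1a was 0.69 ± 0.16 in Sf3b1 K700E against control (adjusted p = 0.023, lost without control replicate 1 or 2 or Sf3b1 K700E replicate 1 or 2) and -0.71 in double against Sf3b1 K700E (adjusted p = 0.0032). Cdkn1c, which encodes p57 and is known in quiescent stem cells, had 5.59, 6.37 and 5.93 CPM in double and 4.70, 14.2 and 5.99 CPM in inv(3), against 0.555, 0.645 and 0.811 CPM in Sf3b1 K700E and 0.472, 0.353 and 0.480 CPM in control. All inv(3)-bearing libraries were far above the others, with log2 fold changes of 3.77 ± 0.40 in double against control (adjusted p = 2.2e-05) and 4.25 ± 0.40 in inv(3) against control (adjusted p = 1.5e-05). Cdkn2c, the INK4 inhibitor p18, had 54.4, 41.0 and 46.6 CPM in double and 56.1, 48.0 and 45.8 CPM in inv(3), against 18.9, 18.7 and 18.8 CPM in Sf3b1 K700E and 28.3, 26.7 and 28.4 CPM in control. It rose by 0.77 ± 0.10 in double and 0.85 ± 0.10 in inv(3) against control, and fell by 0.56 on the log2 scale in Sf3b1 K700E against control (adjusted p = 0.0079, lost without Sf3b1 K700E replicate 2).

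Cdkn2d, the INK4 inhibitor p19, was 0.42 ± 0.08 in inv(3) against control (adjusted p = 0.0014) and -0.09 ± 0.08 in double against control. Ccnd1, the gene of cyclin D1, which pairs with Cdk4 and Cdk6, stood at 66.8, 60.5 and 65.1 CPM in double and 31.5, 52.6 and 39.3 CPM in inv(3), against 45.1, 41.4 and 33.1 CPM in Sf3b1 K700E and 18.2, 19.7 and 26.9 CPM in control. Each allele went with more Ccnd1, by 0.93 ± 0.19 in inv(3) and 0.88 ± 0.19 in Sf3b1 K700E against control, and both together with 1.57 ± 0.19 (adjusted p = 8.1e-05). The call of Ccnd1 in Sf3b1 K700E was lost without control replicate 1 or 2 or Sf3b1 K700E replicate 1 or 2. E2f6, a repressive E2F factor, was 0.29 ± 0.04 in Sf3b1 K700E against control (adjusted p = 0.0059) and -0.32 in double against Sf3b1 K700E (adjusted p = 9.4e-05). In double against control E2f6 was -0.03 ± 0.04 (adjusted p = 0.57).

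Genes of G2 and mitosis are transcribed later in the cycle. Of 22, all 22 fell in double against inv(3) (median -0.31), beside 9.13% of all genes, and 17 (77.3%) in double against control (median -0.23), beside 20.4%. In inv(3) against control 5 rose (22.7%, near the 18.4% of all genes; median 0.08). There 1 fell (4.55%, beside 20.3% of all genes). It was Mybl2 (-0.22 ± 0.07, adjusted p = 0.022), named after its values were seen and lost without control replicate 2 or 3 or inv(3) replicate 1 or 3. The count of 5 was 2 without control replicate 2 and 3 without control replicate 1 or 3 or inv(3) replicate 2 or 3. The ubiquitin-conjugating enzyme gene Ube2c was 0.35 ± 0.07 in inv(3) against control (adjusted p = 0.0022) and -0.49 in double against inv(3) (adjusted p = 0.0014). Foxm1, the transcription factor of this program, was 0.21 ± 0.06 in inv(3) against control (lost without control replicate 1 or inv(3) replicate 3) and -0.28 ± 0.06 in double against inv(3). The spindle checkpoint kinase gene Bub1 was 0.18 ± 0.05 in inv(3) against control (lost without control replicate 2 or 3) and -0.25 ± 0.05 in double against inv(3). Aurkb, Cenpe and Kif20a, genes of chromosome movement and cytokinesis, were -0.28, -0.31 and -0.33 in double against control. In Sf3b1 K700E against control they were -0.20, -0.20 and -0.16 (adjusted p = 0.039, 0.047 and 0.054). There 2 of the 22 fell (9.09%, beside 4.90% of all genes), with 0 to 4 across left-out libraries. In double against Sf3b1 K700E Aurkb and Cenpe did not pass (adjusted p = 0.26 and 0.11), while Kif20a did (-0.16, adjusted p = 0.015).

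Markers of other cell types moved with the groups far more than the replication genes did. Summed CPM of 9 neutrophil genes was 2747 to 3943 in double and 4663 to 5736 in inv(3), against 1195 to 2232 in Sf3b1 K700E and 1425 to 2104 in control. For 8 erythroid genes it was 47.0 to 85.4 in double and 31.4 to 94.3 in inv(3), against 354 to 424 in Sf3b1 K700E and 252 to 270.2 in control. All 8 fell in double against control, where 20.4% of all genes were called lower. For 6 stem cell genes summed CPM was 31.9 to 39.99 in double and 8.60 to 18.6 in inv(3), against 74.9 to 111 in Sf3b1 K700E and 56.8 to 70.4 in control. For 9 macrophage genes summed CPM was 66.6 to 86.7 in double and 82.7 to 125 in inv(3), against 445 to 598 in Sf3b1 K700E and 339.8 to 429.6 in control. Against control, Cd163, Vcam1, Axl, C1qb and C1qc fell in both double and inv(3) (edgeR). Adgre1 instead rose in inv(3) (0.57 ± 0.12, adjusted p = 0.0034) and gave -0.00 ± 0.12 in double. Mrc1 passed in neither (adjusted p = 0.18 in double and 0.64 in inv(3)).

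Mast cell and basophil markers (7 genes) summed to 115 to 127 CPM in double and 147 to 183 CPM in inv(3), against 512 to 576 CPM in Sf3b1 K700E and 530.1 to 548 CPM in control, and megakaryocyte markers (6 genes) to 30.6 to 57.5 CPM in double and 25.8 to 42.4 CPM in inv(3), against 142 to 206 CPM in Sf3b1 K700E and 119 to 157 CPM in control. Primary granule genes (5) were at 92.5% of control in double, 119% in inv(3) and 68.4% in Sf3b1 K700E. The 8 B-lymphoid genes summed to at most 7.08 CPM in any library, and among their defining markers Pax5 was at 0 in 4 libraries. The neutrophil, erythroid, stem cell, macrophage, mast cell and megakaryocyte sums split the libraries by the inv(3) allele, as Orc1, Mcm3, Pola1 and Rfc4 did, whereas the primary granule sums of double and control overlapped. The part of these cell types in the lower levels of the replication genes was not tested.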

How the data were processed

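RNA was poly(A)-selected and sequenced from unstranded TruSeq libraries, per the labels, in 12 libraries of 4 groups. Per the file headers the deposited tables have RSEM columns: expected counts, which are the authors' unnormalized estimates of fragments per gene, TPM, and effective length in bases. Per the submitters' processing notes the build was mm10 and bcl2fastq was used. No aligner or RSEM version is named in the labels or headers, so their effect on these values was not examined.

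Expected counts as deposited were rounded to whole numbers, filtered with filterByExpr by group (13755 of 24411 genes), and scaled by TMM. edgeR 4.0.16 in R 4.3.3 then gave 1 robust quasi-likelihood model of the 4 groups. The interaction and 5 pairs of groups were tested, two-sided, with Benjamini-Hochberg adjustment over all tested genes and a limit of 0.05. Standard errors come from the quasi-likelihood F statistic. CPM uses TMM library sizes. TPM as deposited by the authors was used for levels between genes only. The code was tested on simulated data.

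The 37 genes, the pathway and marker lists and the tests were chosen with earlier results of these data known. Values per library are given for the 4 genes of smallest p in each comparison, the gene of highest TPM in each role, and those past the limit in Sf3b1 K700E against control; up to 3 genes of smallest p stand for each pathway list in inv(3) and in Sf3b1 K700E against control. Alternatives were RLE and upper-quartile scaling, no low-count filter, DESeq2 1.42.0, an effective-length offset, the compared libraries alone, a block for the replicate number, and each of 12 libraries left out. Libraries of a group differed by more than sampling noise, so none was counted as a repeat. Promoter sequences and gene positions are from RefSeq (GRCm38.p6), the assembly of mm10. The printed promoter windows were cut to 30 bases where 60 bases would overlap a GENCODE exon of the gene.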

Additional observations from a re-analysis of the deposited data

Results flagged for a closer look

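None of the 37 genes had an interaction past the limit. Among the pathway genes set beside them, 5 had one (edgeR, adjusted p under 0.05). For these, the difference of inv(3) from control was unlike that of double from Sf3b1 K700E. The interaction carries the lack of Y-linked transcripts in inv(3) libraries, which cannot be told apart here from an effect of the alleles. The interaction (log2 scale) was 0.34 ± 0.07 (SE) for Samhd1, with an adjusted p of 0.045. It was -0.44 ± 0.07 for the histone chaperone gene Asf1b, with an adjusted p of 0.023. For the mitotic genes it was -0.28 ± 0.05 for Bub1b (adjusted p = 0.034), -0.34 ± 0.07 for Ccnb2 (adjusted p = 0.043) and -0.34 ± 0.06 for Cenpf (adjusted p = 0.032). Of 18 alternatives, 13 kept the call of Asf1b, 8 each those of Bub1b, Ccnb2 and Cenpf, and 4 that of Samhd1. Asf1b was lost without control replicate 1, 2 or 3 or double replicate 1 or 3, and the other 4 without control replicate 1, 2 or 3, inv(3) replicate 2 or 3, Sf3b1 K700E replicate 1 or 2 or double replicate 3. Ccnb2, Cenpf and Samhd1 were also lost without Sf3b1 K700E replicate 3, and Bub1b, Ccnb2 and Samhd1 without double replicate 1.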

How the results depend on the processing

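No called gene among the 37 changed direction under any alternative. The number lower in inv(3) against control was 11, and 18 with upper-quartile scaling, 8 with the replicate number as a block and 7 to 13 with single libraries left out. Upper-quartile scaling also moved the lower calls over all genes in that comparison, from 2793 to 3415. In double against control it was 23, with 16 to 25 across left-out libraries, and in double against Sf3b1 K700E 22, with 19 to 24. In double against inv(3) it was 7, with 4 for the compared libraries alone and 4 to 12 across left-out libraries. In Sf3b1 K700E against control the 2 lower calls were 0 to 2 across left-out libraries, and 1 gene (Cdc6) was higher with RLE scaling, upper-quartile scaling, DESeq2 or the compared libraries alone, and 0 to 1 across left-out libraries. The interaction gave 3 lower calls with DESeq2 and 0 to 2 across left-out libraries, against 0 otherwise. The cause of these moves was not tested.

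Of 18 correlations between same-numbered libraries of different groups, 3 were above 0.1 (range -0.379 to 0.270). Differently numbered libraries were not correlated, so these values cannot decide whether the numbers pair the samples. With the replicate block the lower counts were 8 in inv(3) against control, 2 in Sf3b1 K700E against control, 20 in double against control, 6 in double against inv(3), 20 in double against Sf3b1 K700E and 0 for the interaction. Over all genes, DESeq2 called 1881 genes in Sf3b1 K700E against control and the block fit 654, against 1216. For the interaction DESeq2 called 622 and the block fit 60, against 115, and in double against inv(3) the compared libraries alone gave 1954, against 3103. With 3 libraries a group, the spread of Cdt1 and Pold1 limits what could be detected for them.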

Other observations

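Within the double group, replicate 2 was the highest of the 3 libraries for 31 of the 37 genes, replicate 1 for 2 and replicate 3 for 4. In the other groups no library was highest for more than 20 of the 37 (control replicate 1). Cdt1 had 113, 103 and 92.9 CPM in double libraries, 107, 139 and 112 CPM in inv(3) libraries, 121, 89.3 and 94.3 CPM in Sf3b1 K700E libraries and 94.5, 114 and 121 CPM in control libraries, and it was highest in the same library as Pold1 in 4 of 4 groups.

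Mki67, the proliferation marker, stood at 852, 883 and 810.3 CPM in double libraries and at 1081, 954 and 992 CPM in inv(3) libraries, against 905, 901 and 994 CPM in Sf3b1 K700E and 1055, 983 and 958 CPM in control libraries. It was -0.25 ± 0.06 in double against inv(3) (log2 scale, SE; edgeR, adjusted p = 0.012, lost without double replicate 3) and -0.23 ± 0.06 in double against control (adjusted p = 0.0079). It was chosen after its values were seen. The summed G2 and mitosis genes stood at 86.1% of control in double, 104% in inv(3) and 95.4% in Sf3b1 K700E.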
